A study of Mus musculus with 9 samples.

Results

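The genes described here are 10 members of the integrated stress response and of serine synthesis, chosen by name from the 48820 genes of the deposited expression table: *Atf4*, *Atf5*, *Ddit3*, *Trib3*, *Gdf15*, *Asns*, *Phgdh*, *Psat1*, *Shmt2* and *Mthfd2*. All 10 were found. They were followed in the hearts of untreated wild-type C57BL/6J mice, an inbred laboratory strain, with 3 biological replicates at each of 3 stages: embryonic day 18.5 (E18.5d), postnatal day 1 (P1d) and postnatal day 7 (P7d), that is just before birth, just after birth and after a week of suckling. The study compared these stages to follow the change in cardiac metabolism around birth. Values are FPKM, fragments per kilobase of transcript scaled to the mapped fragments of each library, so that levels of different genes can be compared per length. Whole hearts were sequenced, so fewer cells of a type and less RNA per cell cannot be told apart.

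In the integrated stress response, kinases that sense amino acid shortage, misfolded protein, viral RNA or haem deficiency phosphorylate the translation factor eIF2α. Most translation slows, while the mRNA of the transcription factor ATF4 is translated better. ATF4 is therefore set largely at the level of protein, and its mRNA is an indirect reading of the pathway. With partners of the C/EBP family it binds composite sites in genes of amino acid uptake and synthesis, among them asparagine synthetase and the enzymes of the serine pathway. Serine made from the glycolytic intermediate 3-phosphoglycerate supplies 1-carbon units on folate for purine and thymidylate synthesis, and in the heart this response is known as a reaction to failing mitochondria.

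The letters of such a site, TGATGNAA, were sought on both strands of the RefSeq promoter windows (250 bases before to 50 after the start, GRCm38.p6). All 10 members had a window, and 2 of them, *Asns* and *Trib3*, held the letters, against 3.97% of all 32851 windows and 4.51% of 27025 genes. Both stretches are shown because they are the members in which the letters of the ATF4 site lie at the promoter, with the site in capitals, written 5′ to 3′ along the gene. Positions count from the RefSeq start. The gene spans given below are those of GENCODE, and their starts differ. By those spans the *Asns* site lies inside the gene and the *Trib3* site lies before it. In *Asns*, the site covers bases -23 to -16 before the RefSeq start, and the stretch is chr6:7693210-7693267 on the minus strand. In *Trib3* it covers bases 15 to 22 counted from the start, on the opposite strand to the gene, and the stretch is chr2:152344028-152344057 on the minus strand.
*Asns*: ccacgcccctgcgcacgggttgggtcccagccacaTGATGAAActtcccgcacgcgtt
*Trib3*: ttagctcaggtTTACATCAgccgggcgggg
Among related genes of the pathway, 10 of 22 other ATF4 pathway genes (45.5%) and 5 of 12 aminoacyl-tRNA synthetases (41.7%) with a window held the letters, and 0 did among the 11 control genes, 22 folate enzymes and 15 unfolded protein response genes with one. A match is a description of the letters and not a measurement of binding. The 2 genes with the letters differed in course: *Asns* fell after birth, and *Trib3* passed no test.

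Several features of the libraries bear on the values. The labels call every heart male, yet *Xist*, an RNA made by the inactivated copy of X, reached 58.0 to 97.0 FPKM in 4 hearts (2 at E18.5d, 2 at P7d) and 0.020 to 0.11 FPKM in the other 5. Genes of the Y chromosome were listed at 0 in the former and were each at 9.74 to 40.9 FPKM in the latter. *Scgb3a2*, a secretory gene of the airway, was at 53.2 and 127 FPKM in replicates 1 and 2 of E18.5d and at 179 FPKM in replicate 1 of P1d, and at no more than 1.0 FPKM in the other 6 hearts. The heart muscle list (7 of 7 genes detected) summed to 24242 to 32597 FPKM, so the labelled tissue held. The FPKM of replicate 2 of P1d summed to 1.79e+06, the highest of the 9 hearts (median 1.43e+06). *Alb*, a liver gene, was at 15.9 FPKM in that heart and at 0.010 to 5.86 FPKM in the others. Counts of members and of the pathway lists are given with and without the hearts with *Xist* and those with *Scgb3a2* above 10 FPKM.

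**Figure D1:**
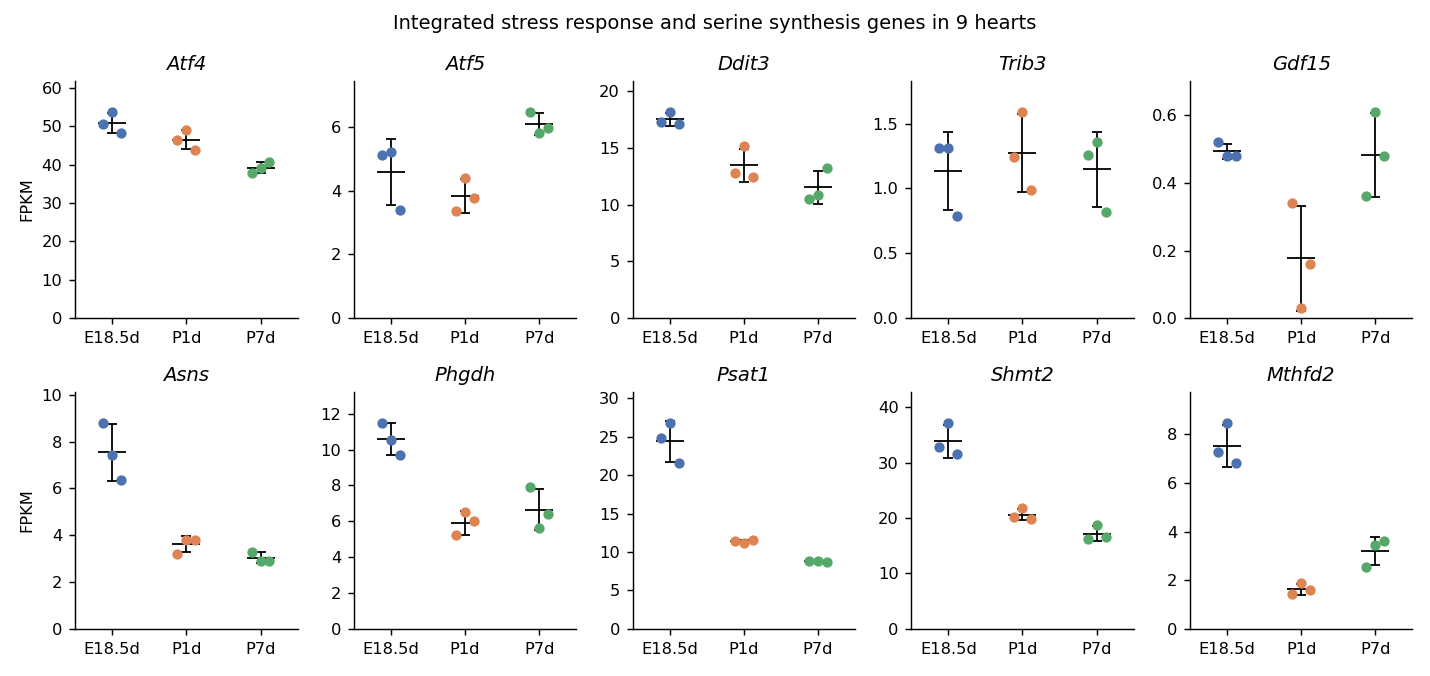
FPKM of each of the 10 members (vertical axis, starting at 0) in the 3 hearts of each stage (points in replicate order), with the mean (long bar) and SD (capped line). The serine pathway genes and *Asns* sat highest at E18.5d in every heart, *Mthfd2* was lowest at P1d, *Atf5* was highest at P7d, and *Trib3* overlapped throughout.

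Around birth the 5 enzymes of the list fell together, with log2 changes of -0.69 to -1.69 at P1d over E18.5d, beside -0.13 to -0.36 for the 3 transcription factors. In P1d against E18.5d hearts, 6 of the 9 members tested were lower and 0 were higher (limma on log2(FPKM + 1), Benjamini-Hochberg adjusted p under 0.05 over 13618 genes), where 27.6% of all genes tested were lower and 18.4% higher. The 6 were *Mthfd2*, *Psat1*, *Asns*, *Phgdh*, *Shmt2* and *Ddit3*. By P7d, 7 members were lower and 0 higher than at E18.5d, with *Atf4* as the seventh, against a background of 36.9% lower and 12.5% higher. Between P1d and P7d, 2 members rose (*Mthfd2*, *Atf5*) and 3 fell (*Psat1*, *Shmt2*, *Atf4*), against 15.5% of genes higher and 28.6% lower. The median log2 change over the 9 members was -0.69, -0.60 and -0.19 in these comparisons, and over all genes tested -0.06, -0.17 and -0.09. The 3 comparisons share hearts and are not independent of each other. Counted by hearts that did not overlap, 6 members were lower and 0 higher at P1d over E18.5d (background 32.3% and 22.1%), 7 lower and 1 higher at P7d over E18.5d (45.6% and 16.9%), and 3 lower and 2 higher at P7d over P1d (34.3% and 19.3%). *Gdf15*, with a mean of 0.384 FPKM, was under the filter of 1 FPKM and was not tested.

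The FPKM columns are not on a common scale, and the general fall partly depends on it. With median of ratios the all-gene median moved to 0.00, -0.02 and 0.00. The calls over all genes then split into 3154 higher and 3112 lower at P1d (2505 and 3755 as deposited), 2905 and 2848 at P7d over E18.5d (1706 and 5025), and 2986 and 2700 at P7d over P1d (2112 and 3901). On that scale 6 members were lower at P1d than at E18.5d, against 22.9% of genes (23.2% were higher), and 7 lower and 1 higher at P7d, against 20.9% and 21.3%. Between P1d and P7d, 2 members were higher and 1 lower, against 21.9% and 19.8%.

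**Figure D2:**
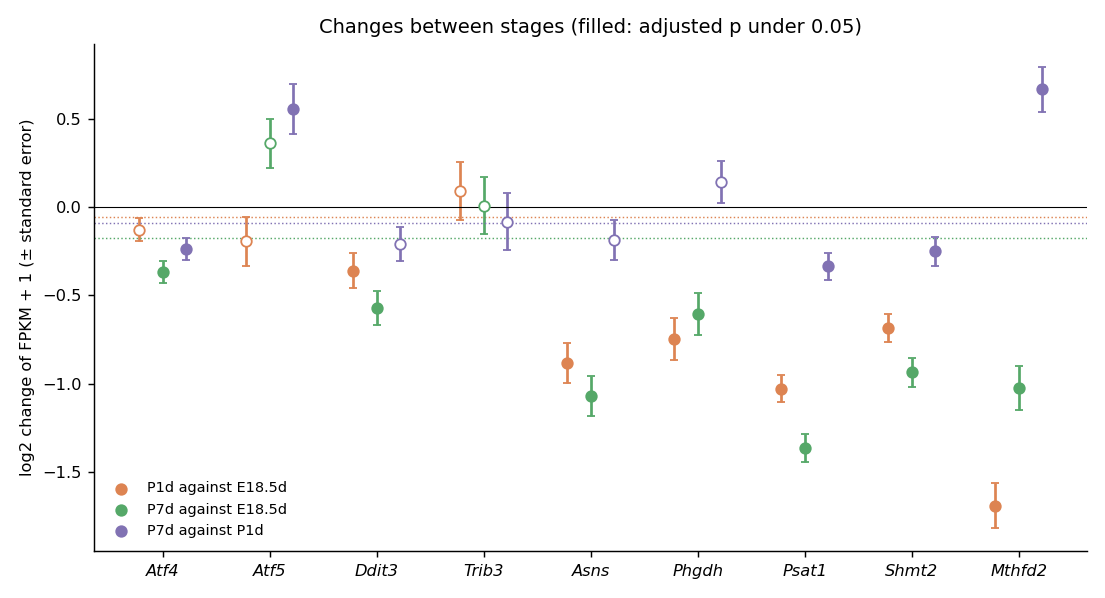
Change of log2(FPKM + 1) with its standard error (vertical axis) for the 9 members tested, with 1 colour per comparison, filled points for an adjusted p under 0.05 and dotted lines at the median of all genes tested. *Mthfd2* lies lowest at P1d against E18.5d (-1.69) and above 0 at P7d against P1d (0.67), and *Trib3* lies near 0 in each comparison.

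*Mthfd2* encodes the mitochondrial methylenetetrahydrofolate dehydrogenase, an enzyme of dividing and embryonic cells that is scarce in most adult tissues (ENSMUSG00000005667.8, chr6:83305691-83325908, minus strand). It was at 7.28, 8.48 and 6.81 FPKM in the E18.5d hearts, at 1.43, 1.88 and 1.60 in the P1d hearts and at 2.54, 3.46 and 3.61 in the P7d hearts. The 3 stages did not overlap, and P1d stood lowest, at 21.8% of the E18.5d mean, with P7d at 42.6%. The log2 change was -1.69 (standard error 0.13, adjusted p = 1.15e-05 by limma) from E18.5d to P1d and 0.67 (0.13, adjusted p = 0.00246) from P1d to P7d. Of the genes tested, 0.874% had a lower log2 change than *Mthfd2* in the first comparison, and 95.1% in the second.

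The genes closest in course to *Mthfd2*, by the root mean square difference of centred log2(FPKM + 1) over the 9 hearts, were *Gtse1* (0.095) and *Plk1* (0.10), both genes of the dividing cell, with *Plk1* at a mean of 21.2, 5.54 and 10.4 FPKM over the stages. The 4 proliferating cell markers moved in the same way. Their summed level was 233 to 246 FPKM at E18.5d, 51.1 to 68.0 at P1d and 104 to 112 at P7d. All 4 (*Mki67*, *Top2a*, *Cdk1*, *Ccnb1*) were lower at P1d and P7d than at E18.5d, and 3 were higher at P7d than at P1d, with *Ccnb1* the exception (log2 change 0.21, adjusted p = 0.113). None was at 0 in any heart, and their part in the course of *Mthfd2* was not tested.

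*Shmt2*, the mitochondrial serine hydroxymethyltransferase that passes the 1-carbon unit of serine to folate just before MTHFD2, was the most abundant enzyme of the list (ENSMUSG00000025403.4, chr10:127517123-127522444, minus strand). It was at 32.9, 37.2 and 31.5 FPKM at E18.5d, 20.2, 21.8 and 19.9 at P1d, and 16.2, 18.8 and 16.6 at P7d. Each stage lay below the one before it without overlap. The log2 change was -0.69 (standard error 0.08, adjusted p = 0.000165 by limma) at P1d and -0.94 (0.08, adjusted p = 2.42e-05) at P7d, both over E18.5d. The later fall, of -0.25 from P1d to P7d (adjusted p = 0.0317), passed under 10 of 22 other settings only, and none of the other 4 scalings kept it. *Shmt2* fell as *Mthfd2* rose between those stages, so that the ratio of their FPKM was 4.51 ± 0.119 in E18.5d hearts, 12.7 ± 1.29 in P1d hearts and 5.46 ± 0.880 in P7d hearts (SD, n = 3). Closest in course to *Shmt2* were *Cenpq* and *Dctpp1*. *Shmt2* shares 32 bases with *Ndufa4l2* on the other strand, and a strand-specific count is not stated.

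*Psat1*, phosphoserine aminotransferase, makes the second step of serine synthesis (ENSMUSG00000024640.9, chr19:15904678-15947337, minus strand). Its hearts were the tightest of the list after birth, with 24.8, 26.8 and 21.6 FPKM at E18.5d, 11.4, 11.2 and 11.6 at P1d, and 8.88, 8.84 and 8.77 at P7d. The P7d mean was 36.2% of that at E18.5d, with a log2 change of -1.36 (standard error 0.08, adjusted p = 1.78e-06 by limma), the largest fall of the members in that comparison. From P1d to P7d it fell by 0.33 on the log2 scale (adjusted p = 0.00686), a call that 4 of 22 other settings lost. *Pfkp*, the platelet-type phosphofructokinase of glycolysis, and the collagen *Col12a1* were closest in course.

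*Phgdh*, phosphoglycerate dehydrogenase, makes the first and committed step (ENSMUSG00000053398.11, chr3:98313170-98339990, minus strand). It was at 11.5, 10.5 and 9.72 FPKM at E18.5d, 5.22, 6.53 and 5.99 at P1d, and 7.91, 5.64 and 6.42 at P7d. Both postnatal stages lay under E18.5d and overlapped each other, so that the fall was complete by P1d: the log2 change was -0.75 (standard error 0.12, adjusted p = 0.000873 by limma) at P1d, -0.60 (adjusted p = 0.00255) at P7d, and 0.14 (adjusted p = 0.363) between them. *Psph*, the phosphatase of the last step and not a member of the list, was at 6.90, 6.52 and 4.86 FPKM at E18.5d, 5.57, 6.35 and 4.82 at P1d, and 3.61, 4.50 and 4.82 at P7d. It passed at P7d over E18.5d alone (log2 change -0.41, adjusted p = 0.0342), which 1 of the other 4 scalings kept, and its P1d hearts overlapped those of E18.5d (-0.10, adjusted p = 0.575). Against *Psph*, *Psat1* stood at 4.05 ± 0.429 times its FPKM in E18.5d hearts, 2.07 ± 0.318 in P1d hearts and 2.08 ± 0.336 in P7d hearts (SD, n = 3), without overlap between E18.5d and the later stages.

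*Asns*, asparagine synthetase, is a classical ATF4 target outside the serine pathway (ENSMUSG00000029752.12, chr6:7675169-7693254, minus strand). It was at 8.81, 7.45 and 6.37 FPKM at E18.5d, 3.22, 3.81 and 3.80 at P1d, and 3.30, 2.92 and 2.92 at P7d. All 6 postnatal hearts were below all 3 E18.5d hearts, with a log2 change of -0.88 (standard error 0.11, adjusted p = 0.000242 by limma) at P1d and -1.07 (0.11, adjusted p = 7.33e-05) at P7d. P7d and P1d overlapped (-0.19, adjusted p = 0.206). The gene closest in course was *Pgk1*, a glycolytic kinase, with a mean of 567, 316 and 251 FPKM over the stages. The ratio of *Atf4* to *Asns* FPKM was 6.84 ± 0.981 in E18.5d hearts, 12.9 ± 1.44 in P1d hearts and 12.9 ± 1.30 in P7d hearts (SD, n = 3), with no overlap between E18.5d and the later stages.

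**Figure D3:**
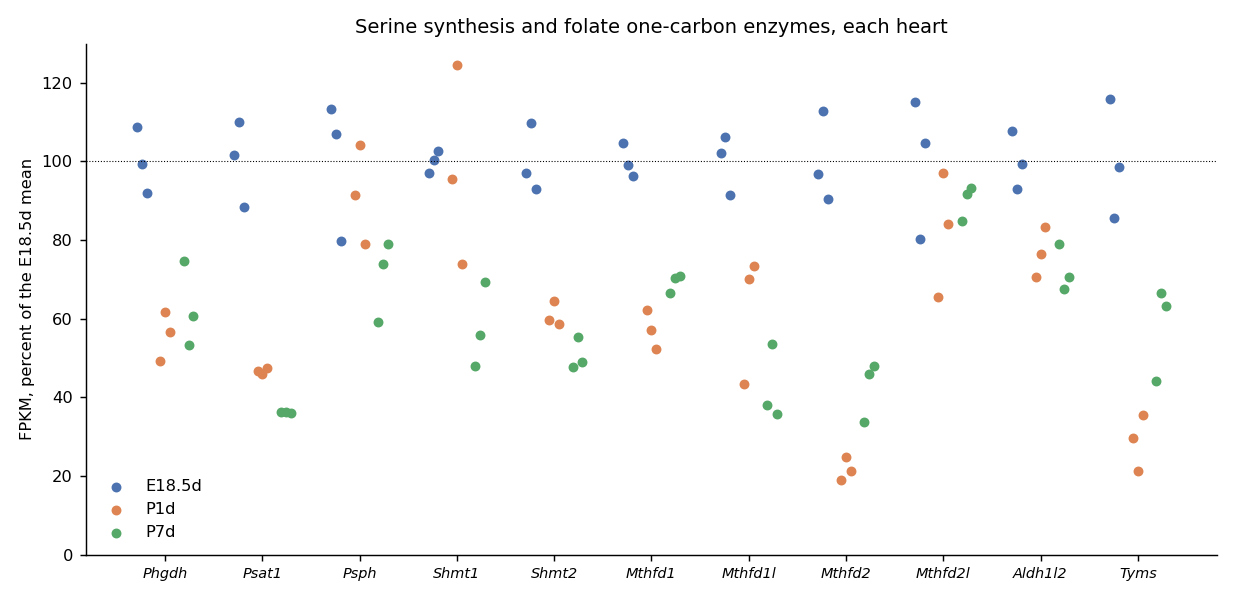
FPKM of each heart as a percentage of the E18.5d mean of the same gene (vertical axis, starting at 0) for 11 enzymes of serine synthesis and folate 1-carbon metabolism. *Mthfd2* and *Tyms* share low points at P1d and higher ones at P7d, while *Mthfd2l* and, at P1d, *Psph* and *Shmt1* overlap their E18.5d points.

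*Atf4* itself, the central transcription factor (ENSMUSG00000042406.7, chr15:80255184-80257541, plus strand), was the most abundant member. It was at 50.5, 53.7 and 48.3 FPKM at E18.5d, 46.5, 48.9 and 43.9 at P1d, and 37.8, 39.2 and 40.6 at P7d. The P1d hearts overlapped those of E18.5d (log2 change -0.13, standard error 0.06, adjusted p = 0.125 by limma), and the P7d hearts lay below both. At P7d 77.1% of the E18.5d mean remained, a log2 change of -0.37 (adjusted p = 0.00121). The fall from P1d to P7d (-0.24, adjusted p = 0.0131) passed on none of the other 4 scalings (adjusted p = 0.103 to 0.418). *Topors* and *Cryab*, a small heat shock protein abundant in heart muscle, were closest in course.

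*Ddit3*, which encodes CHOP, a stress-induced partner of ATF4 linked to cell death (ENSMUSG00000025408.15, chr10:127290774-127296288, plus strand), was at 17.3, 18.1 and 17.1 FPKM at E18.5d, 12.8, 15.1 and 12.4 at P1d, and 10.5, 10.9 and 13.2 at P7d. Both postnatal stages lay under E18.5d, with log2 changes of -0.36 (standard error 0.10, adjusted p = 0.0138 by limma) and -0.57 (0.10, adjusted p = 0.00118), and they overlapped each other (-0.21, adjusted p = 0.108). With a covariate for *Xist* the P1d call was lost (adjusted p = 0.0787). *Ddit3* shares 68 bases with the methionyl-tRNA synthetase gene on the other strand, which had a mean of 19.1 FPKM. GENCODE also lists another protein-coding gene named *Ddit3*, which shares 2925 bases on the same strand and has no deposited values.

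*Atf5*, a related factor that induces mitochondrial chaperones and proteases, was the only member with its highest level at P7d (ENSMUSG00000038539.15, chr7:44812256-44816658, minus strand). It was at 5.12, 5.22 and 3.38 FPKM at E18.5d, 3.35, 4.39 and 3.75 at P1d, and 6.46, 5.79 and 5.97 at P7d. All P7d hearts exceeded all earlier ones, while replicate 3 of E18.5d lay within the P1d range. The rise from P1d to P7d was 0.55 on the log2 scale (standard error 0.14, adjusted p = 0.0107 by limma), and the value over E18.5d was 0.36 (0.14, adjusted p = 0.0565), which passed in 5 of 21 other settings, among them 3 of the other 4 scalings (adjusted p = 0.0121 to 0.0131). It was 0.45 without replicate 2 of E18.5d (adjusted p = 0.0445) and 0.20 without replicate 3 of E18.5d (adjusted p = 0.167). Without replicate 3 of E18.5d, P1d fell below E18.5d (-0.36, adjusted p = 0.0281, against -0.19 and 0.283 with it). *Atf5* shares 571 bases with *Nup62* on the other strand, which had a mean of 17.6 FPKM, so some fragments could belong to either.

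*Trib3*, a pseudokinase that ATF4 induces and that damps it (ENSMUSG00000032715.9, chr2:152337422-152344032, minus strand), was low in every heart. It was at 1.31, 1.31 and 0.79 FPKM at E18.5d, 1.24, 1.59 and 0.99 at P1d, and 1.26, 1.36 and 0.82 at P7d. The 3 stages overlapped, and the log2 changes were 0.09, 0.01 and -0.08 with a standard error of 0.16 (adjusted p = 0.673, 0.972 and 0.704 by limma). The sign of each turned under some settings. About 45.4 to 101 fragments per heart lay behind these values.

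*Gdf15*, a secreted hormone of stressed tissue that lowers appetite, was close to the limit of detection (ENSMUSG00000038508.7, chr8:70629393-70632456, minus strand). It was at 0.52, 0.48 and 0.48 FPKM at E18.5d, 0.34, 0.030 and 0.16 at P1d, and 0.36, 0.61 and 0.48 at P7d, of which the lowest corresponds to about 1.26 fragments and the highest to about 38.6. The P1d hearts lay below all others. With no filter on low values the log2 change was -0.35 from E18.5d to P1d (standard error 0.10, adjusted p = 0.0369 by limma) and 0.34 from P1d to P7d (adjusted p = 0.0452), on a scale that understates low genes and at counts too few to weigh further.

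By the same measure of likeness, the closest genes to the remaining members were *Pdgfrl* and *Fam124b* for *Atf5*, *Specc1* and *Ctdspl2* for *Ddit3*, *Lin9* and *Rpp38* for *Phgdh*, *Arl6ip1* beside *Pgk1* for *Asns*, *Slc35e4* and *Stxbp5* for *Trib3*, and *Grip2* and *Apip* for *Gdf15*. Over all members the difference to these genes was 0.037 to 0.10 on the log2 scale, so none followed its member exactly. The members' own root mean square about their mean was 0.16 for *Atf4*, 0.17 for *Trib3* and 0.19 for *Gdf15*, and up to 0.71 for *Mthfd2*. The stages of *Trib3* overlapped and *Gdf15* rested on few fragments, so likeness to these 2 says little about stage.

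Per length, *Atf4* was the highest member at each stage and *Shmt2* the second. At E18.5d *Psat1*, *Ddit3* and *Phgdh* followed in that order without overlap between neighbours, then *Asns* and *Mthfd2* (means of 7.54 and 7.52 FPKM), which overlapped, and then *Atf5*, *Trib3* and *Gdf15*. At P7d *Ddit3* (11.5 FPKM) stood above *Psat1* (8.83), *Phgdh* (6.66) and *Atf5* (6.07) overlapped, and so did *Mthfd2* (3.20) and *Asns* (3.05). Exact two-sided permutation tests on the FPKM gave the smallest p that 3 against 3 hearts allow, 0.1, for 7 of the 10 members at P1d over E18.5d, 8 at P7d over E18.5d and 6 at P7d over P1d. That p is reached where the hearts of the 2 stages do not overlap. Of all genes tested, 32.3% were lower and 22.1% higher without overlap at P1d over E18.5d. The shares were 45.6% and 16.9% at P7d over E18.5d, and 34.3% and 19.3% at P7d over P1d. The 10 members include *Gdf15*, which was under the filter of the genes tested.

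Leaving out the 3 hearts with *Scgb3a2* above 10 FPKM leaves 1 heart at E18.5d, which is assumed to vary like the others, and fewer genes passed overall. In that selection 4 members were lower and 0 higher at P1d over E18.5d (*Asns*, *Psat1*, *Shmt2*, *Mthfd2*), where 10.7% of all genes were lower and 7.48% higher. The same 4 members were lower at P7d over E18.5d (all genes 16.6%), where *Atf5* was higher (0.69, adjusted p = 0.0187 by limma, all genes 7.27%). From P1d to P7d 1 member was lower and 2 were higher (all genes 18.9% and 10.3%). In the 5 hearts without *Xist*, with 1 heart each at E18.5d and P7d, those 4 members were again lower at P1d over E18.5d (all genes 4.29% lower, 1.76% higher) and 2, *Psat1* and *Shmt2*, at P7d (0.742% lower, 0.683% higher), and 0 passed between P1d and P7d (0.764% lower, 0.551% higher). *Mthfd2* was at -1.42 at P7d over E18.5d there (adjusted p = 0.0569). *Phgdh*, *Ddit3* and *Atf4* lost their calls over E18.5d in both of these small fits.

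The remaining genes of the pathway were read from 5 lists. As deposited, their shares stand against 27.6% lower and 18.4% higher of all genes at P1d over E18.5d. At P7d over E18.5d they stand against 36.9% and 12.5%, and at P7d over P1d against 28.6% and 15.5%. Their medians stand against -0.06, -0.17 and -0.09. With median of ratios, the all-gene shares lower and higher were 22.9% and 23.2%, 20.9% and 21.3%, and 19.8% and 21.9%. All-gene shares for the *Scgb3a2* and *Xist* selections are those given in the paragraph before. Of 25 serine, glycine and folate enzymes tested (of 27), 12 were lower and 1 higher at P1d over E18.5d (48% and 4%, median log2 change -0.22), 17 lower and 0 higher at P7d over E18.5d (68% and 0%, median -0.42), and 8 lower and 4 higher at P7d over P1d (32% and 16%, median -0.10). With median of ratios these counts were 10 and 1, 13 and 1, and 5 and 5. In the *Scgb3a2* selection they were 3 and 1, 8 and 0, and 5 and 3, and without *Xist* 2 were lower at P1d and no other passed. *Tyms*, thymidylate synthase of DNA synthesis, was at 22.4, 16.5 and 19.1 FPKM at E18.5d, 5.76, 4.13 and 6.86 at P1d, and 8.53, 12.8 and 12.2 at P7d. The stages did not overlap, with the largest fall of the list at P1d (-1.64, standard error 0.19) and a rise from P1d to P7d (0.89). *Mtr*, methionine synthase, was higher at P1d (0.48) and lower at P7d than at P1d (-0.76).

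Several enzymes stand beside the members in the folate pathway. *Shmt1*, the cytosolic counterpart of *Shmt2*, was at 15.15, 15.65 and 16.04 FPKM at E18.5d and at 14.9, 19.5 and 11.6 at P1d, which overlapped, and fell at P7d to 7.50, 8.71 and 10.8 (-0.74, adjusted p = 0.00540 by limma). *Mthfd2l*, the mitochondrial isozyme of *Mthfd2*, passed in no comparison (adjusted p = 0.175, 0.495 and 0.494), though equal column sums gave -0.42 at P1d over E18.5d (adjusted p = 0.0254), and the ratio of *Mthfd2* to *Mthfd2l* FPKM was 0.632 ± 0.194 in E18.5d hearts, 0.163 ± 0.0124 in P1d hearts and 0.288 ± 0.0390 in P7d hearts (SD, n = 3). *Mthfd1l*, which releases formate from mitochondria, was lower at P1d (-0.60, adjusted p = 0.0171) and P7d (-1.02, adjusted p = 0.00102) than at E18.5d. *Mthfd1*, its cytosolic counterpart, fell at P1d (-0.76) and partly returned at P7d (0.26 over P1d, adjusted p = 0.0157). *Aldh1l1*, a cytosolic folate dehydrogenase, was lower in P7d hearts, by a log2 change of -0.89 over E18.5d and -1.28 over P1d.

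Of 16 genes that control the response, 1 was higher and 3 lower at P1d over E18.5d (6.25% and 18.8%, median log2 change 0.01), 2 higher and 5 lower at P7d over E18.5d (12.5% and 31.2%, median -0.12), and 0 higher and 6 lower at P7d over P1d (0% and 37.5%, median -0.09). With median of ratios the counts were 5 and 3, 4 and 3, and 3 and 3. The all-gene shares higher and lower were then 23.2% and 22.9%, 21.3% and 20.9%, and 21.9% and 19.8%. The balance of the list moved with the scale, as it did over all genes. In the *Scgb3a2* selection the counts were 1 and 0, 0 and 2, and 0 and 4, and without *Xist* 1 gene was higher at P1d and no other passed. The kinase genes *Eif2ak3* (PERK) and *Eif2ak4* (GCN2) passed in no comparison as deposited. *Eif2ak3* was at 8.63, 9.17 and 6.13 FPKM at E18.5d, 5.55, 6.74 and 5.44 at P1d, and 8.15, 6.66 and 7.99 at P7d. At P1d over E18.5d its value was -0.37 (adjusted p = 0.0587 by limma). The other 4 scalings gave -0.52 to -0.26 there, and 1 of them passed (adjusted p = 0.0133 to 0.138). From P1d to P7d its value of 0.32 (adjusted p = 0.0961 by limma) became 0.37 to 0.45 on the other 4 scalings, each of which passed (adjusted p = 0.0218 to 0.0486). *Eif2ak2* (PKR) had fallen by P7d, relative to E18.5d (-0.52, adjusted p = 0.00109) and to P1d (-0.46, adjusted p = 0.00258), on every scaling. *Eif2ak1* (HRI) was also lower at P7d as deposited (-0.21, adjusted p = 0.0324, over E18.5d), but this passed on 1 of the other 4 scalings, and the fall from P1d on none (adjusted p = 0.103 to 0.404). *Eif2s1*, which encodes eIF2α, and *Impact*, an inhibitor of GCN2 signalling, had the largest falls at P1d (-0.52 and -0.53). *Dele1*, which relays mitochondrial stress to HRI, exceeded its E18.5d level at P7d (0.25, adjusted p = 0.00957), and *Eif2b1*, a subunit of the exchange factor of eIF2, was lower at P7d than at P1d (-0.52, adjusted p = 0.00488).

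*Ppp1r15a*, the stress-induced subunit that recruits phosphatase to eIF2α (GADD34), went the other way. It was at 9.96, 9.81 and 8.90 FPKM at E18.5d, 25.6, 26.5 and 20.3 at P1d, and 11.4, 12.9 and 15.5 at P7d. The stages did not overlap, with a rise of 1.24 (standard error 0.12, adjusted p = 6.04e-05 by limma) at P1d and a fall of 0.82 on the log2 scale from P1d to P7d (adjusted p = 0.000749).

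Of 22 other ATF4 pathway genes tested (of 26), 7 were higher and 4 lower at P1d over E18.5d (31.8% and 18.2%, median log2 change 0.06), 3 higher and 5 lower at P7d over E18.5d (13.6% and 22.7%, median -0.15), and 3 higher and 10 lower at P7d over P1d (13.6% and 45.5%, median -0.15). With median of ratios the counts were 9 and 4, 3 and 3, and 4 and 9. In the *Scgb3a2* selection they were 4 and 1, 0 and 3, and 2 and 8, and without *Xist* 2 were higher at P1d over E18.5d and 1 lower at P7d over P1d. *Atf3*, a stress-induced factor, was at 9.22, 6.31 and 13.2 FPKM at E18.5d, 33.5, 32.7 and 19.1 at P1d, and 2.95, 7.29 and 8.40 at P7d, a rise of 1.49 and then a fall of 2.08 on the log2 scale (standard error 0.36, adjusted p = 0.00775 and 0.00150 by limma). *Map1lc3b*, an autophagosome protein, rose by 1.13 at P1d and stayed higher at P7d over E18.5d (0.36). *Ddit4*, an inhibitor of mTORC1, rose at P1d (1.11) and fell from P1d to P7d (-1.06). The neutrophil markers (3 of 3 higher at P1d over E18.5d, 3 of 3 lower at P7d over P1d) summed to 5.65 to 10.7 FPKM at E18.5d, 40.7 to 65.3 at P1d and 12.6 to 17.3 at P7d, and their part in the P1d rises of *Atf3* and *Ppp1r15a* was not tested.

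In the same list, *Pycr1*, a proline synthesis enzyme, was also lowest at P1d: 6.59, 5.91 and 3.72 FPKM at E18.5d, 0.99, 2.02 and 2.03 at P1d, and 3.26, 6.11 and 3.67 at P7d (-1.25 at P1d, adjusted p = 0.00297, and 0.99 from P1d to P7d, adjusted p = 0.0109 by limma). *Aldh18a1*, the other proline enzyme, fell at P1d (-0.62). *Slc7a5* and *Slc1a5*, amino acid transporters, were lower at P7d over E18.5d (-0.73 and -0.65), and *Vldlr*, a lipoprotein receptor, was higher (0.38). *Cebpg*, a C/EBP partner of ATF4, fell at P1d (-0.68, adjusted p = 0.0185 by limma), though the hearts overlapped. Replicate 3 of P1d was at 5.59 FPKM and replicate 3 of E18.5d at 5.32. *Cebpg* rose from P1d to P7d (0.62, adjusted p = 0.0301), and was at -0.07 at P7d over E18.5d, which did not pass.

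Of 20 cytosolic aminoacyl-tRNA synthetases, which charge amino acids to tRNA and include ATF4 targets, 10 were lower at P1d and 14 at P7d than at E18.5d (50% and 70%, median log2 changes -0.20 and -0.32), and 0 were higher in either. With median of ratios 8 were lower in each. From P1d to P7d, 6 were lower and 1 higher (30% and 5%, median -0.13), against 2 and 4 with median of ratios. In the *Scgb3a2* selection 1, 3 and 4 were lower in the 3 comparisons and 0 higher, and without *Xist* none passed. *Gars* fell the most, from 81.9, 79.9 and 73.3 FPKM at E18.5d to 53.5, 55.2 and 56.4 at P1d (-0.50) and 46.8, 47.9 and 47.7 at P7d (-0.71). *Farsb* (-0.47) was next at P1d and *Rars* (-0.64) at P7d. Between P1d and P7d the named changes were those of *Kars* (-0.32), *Rars* (-0.31, which passed on 1 of the other 4 scalings) and *Vars* (0.26).

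The unfolded protein response of the endoplasmic reticulum, a neighbouring stress pathway that shares the kinase PERK, had the largest share of lower genes at P1d among the 5 lists: 13 of 18 were lower and 3 higher than at E18.5d (72.2% and 16.7%, median log2 change -0.89). At P7d 12 were lower and 0 higher than at E18.5d (66.7% and 0%, median -0.57), and 2 were lower and 8 higher than at P1d (11.1% and 44.4%, median 0.21). With median of ratios the lower and higher counts were 13 and 3, 10 and 2, and 1 and 10. In the *Scgb3a2* selection they were 11 and 1, 10 and 0, and 0 and 6, and without *Xist* 9 were lower at P1d and no other passed. *Sdf2l1* was at 9.97, 8.59 and 8.45 FPKM at E18.5d, 2.08, 2.02 and 1.63 at P1d, and 3.29, 3.40 and 3.05 at P7d, a fall of 1.78 on the log2 scale and a partial rise of 0.55. *Manf*, a secreted stress protein, fell by 1.23 at P1d, and *Hyou1*, a chaperone, rose by 0.65 from P1d to P7d. *Sel1l* and *Atf6* were higher at P1d (0.33 and 0.31), and *Sel1l* and *Dnajb9* were lower at P7d than at P1d (-0.22 and -0.40). Of the other 4 scalings, 2 kept the fall of *Dnajb9* and none kept that of *Sel1l*.

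**Figure D4:**
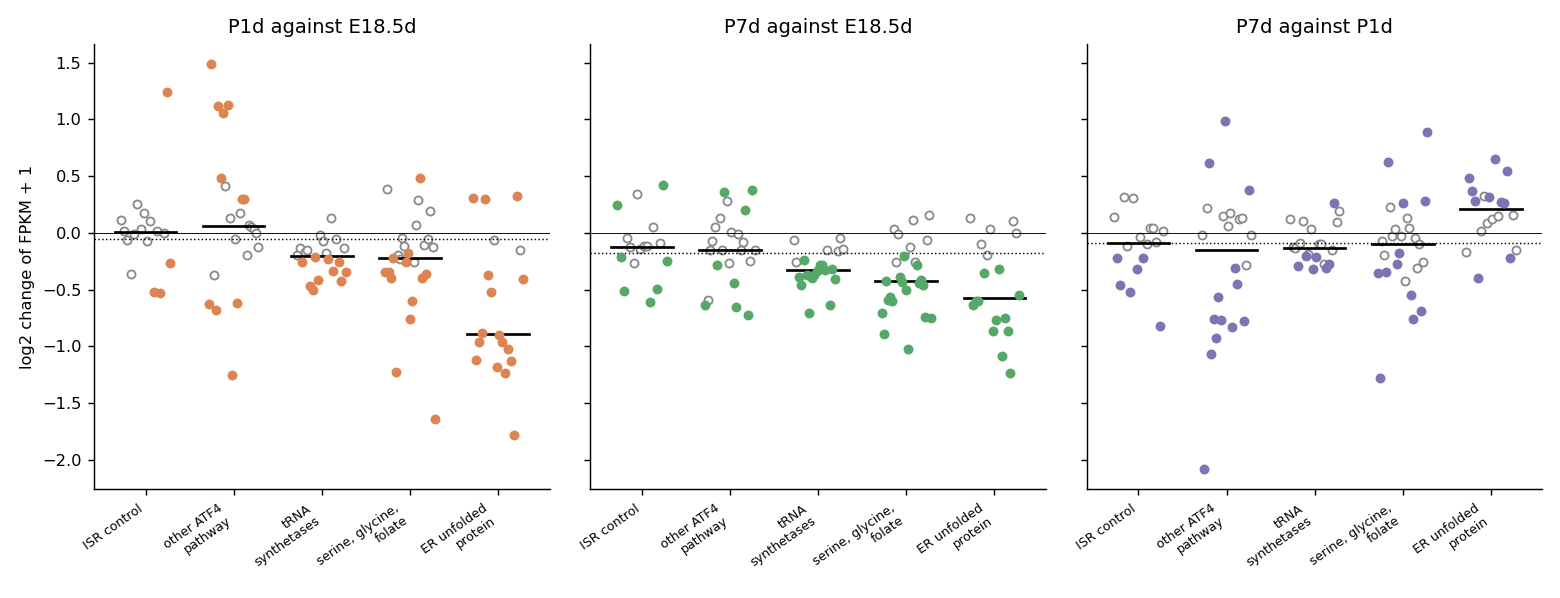
Change of log2(FPKM + 1) (vertical axis) of each gene tested in the 5 pathway lists, with 1 panel per comparison, coloured points for an adjusted p under 0.05, open points for the rest, a bar at the list's median and a dotted line at the median of all genes tested. The endoplasmic reticulum list has its median at -0.89 at P1d against E18.5d and at 0.21 at P7d against P1d, where the other 4 lists have medians from -0.15 to -0.09.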

How the data were processed

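RNA of 9 hearts was sequenced by the study after preparation with the NEBNext Ultra RNA kit, with 3 biological replicates per stage. The authors deposited FPKM values of 48820 genes, 1 column per heart, rounded to 2 decimals. The submitters' processing notes name STAR and GRCm38 (mm10), and the counting tool and annotation are not given in the sources used here. Identifiers were matched to GENCODE M21 for names and positions (48144 matched). Samples were grouped by stage from their labels. FPKM are not counts: the steps between low values, 90.2% to 93.3% of them whole within 0.2 fragments, put the depth at 25.5 to 46.0 times 1e6 fragments per heart, and 1 fragment per kilobase then equals 0.0217 to 0.0392 FPKM.

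Genes averaging at least 1 FPKM (13618) were fitted as log2(FPKM + 1), pseudocount 1, with limma 3.58.1 in R 4.3.3 (all 9 hearts, eBayes with trend, no covariates, Benjamini-Hochberg, threshold 0.05), after a test on simulated data. The labels do not say whether hearts came from separate litters, so the p-values measure the spread between these hearts. Exact permutation tests were run with scipy 1.17.1 in Python 3.11.15 and figures drawn with matplotlib 3.10.9. The members, lists and tests were chosen with earlier results of these data known. Named from each list were the 2 largest changes per direction and comparison that passed the test in hearts without overlap, with *Psph*, the 4 eIF2α kinases and the 2 genes closest in course to each member. The rule named 1 further gene that is left out here. The neighbours of the members in the folate pathway, *Scgb3a2* and *Alb* were named after their values were seen.

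Other settings tried were 4 other scalings (equal column sums, equal sums of protein-coding nuclear genes, median of ratios, quantile), a pseudocount of 0.1, a filter at 5 FPKM or none, eBayes without trend, 2 stages per fit, the replicate number as a block, a covariate for *Xist* above 1 FPKM, omission of each heart in turn, and a further limit of 1 on the absolute log2 change. The selections by *Scgb3a2* and *Xist* were chosen after seeing the data.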

Additional observations from a re-analysis of the deposited data

How the results depend on the processing

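Of the 6 counts of members (higher and lower in 3 comparisons), 118 of 138 values under alternatives stayed within 1.5 times the reported count. The 118 include counts of 0 that stayed at 0. Members higher at P1d over E18.5d, for example, were 0 under every alternative. An absolute log2 change of at least 1 left 2 members lower at P1d over E18.5d, 3 lower at P7d over E18.5d, and 0 in either direction at P7d over P1d, since that rule removes smaller changes by construction. The share of all genes past that limit was not counted, so these counts have no background to be read against. At P7d over E18.5d, 1 member (*Atf5*) was higher under equal sums of protein-coding nuclear genes, median of ratios, quantile normalization and in the hearts with *Scgb3a2* at or under 10 FPKM, and 0 to 1 when each heart was left out. The members lower there were 4 in the *Scgb3a2* selection and 2 in the hearts without *Xist*. At P7d over P1d, 0 members were higher with a mean of at least 5 FPKM, which leaves *Atf5* and *Mthfd2* untested, and 0 without *Xist*. The members lower in that comparison were 0 under equal column sums, equal sums of protein-coding nuclear genes, the covariate for *Xist* and the hearts without *Xist*, and 1 under median of ratios, quantile normalization and the *Scgb3a2* selection. Of the 13618 genes tested, 3901 were lower at P7d over P1d as deposited. Lower genes were 1729 under equal column sums, 2234 under equal sums of protein-coding nuclear genes and 2438 with the covariate for *Xist*. Median of ratios gave 2700 and quantile normalization 2787. Genes higher at P7d over E18.5d were 1706 as deposited. They were 2752 under equal sums of protein-coding nuclear genes, 2905 under median of ratios and 2889 under quantile normalization. The cause was not tested.

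Of the single values, *Trib3*, which was never past the threshold, turned its sign at P1d over E18.5d under equal column sums (-0.0045), the covariate for *Xist* (-0.012) and the hearts without *Xist* (-0.031), and ranged from -0.031 to 0.18 when each heart was left out. At P7d over E18.5d it was at -0.017 under equal column sums, -0.032 without *Xist* and -0.11 to 0.12 with each heart left out. At P7d over P1d it was at 0.0011 under both equal sums of protein-coding nuclear genes and quantile normalization, 0.020 with the covariate and -0.18 to 0.031 with each heart left out. *Atf5* turned to 0.21 at P1d over E18.5d in the *Scgb3a2* selection (adjusted p = 0.330). *Ddit3* gained a call at P7d over P1d without replicate 3 of P7d (-0.30, adjusted p = 0.0319). In the *Scgb3a2* and *Xist* selections *Phgdh* lost its calls at P1d (adjusted p = 0.0894 and 0.0639) and P7d (0.0932 and 0.322) over E18.5d, *Atf4* at P7d over E18.5d (0.0756 and 0.129) and *Ddit3* in both comparisons. The fall of *Atf4* from P1d to P7d did not pass with the covariate for *Xist* (0.0756), nor did that of *Psat1* (0.0633). *Asns* lost its P7d call without *Xist* (0.0809). The calls of *Psat1* and *Shmt2* over E18.5d, and of *Asns* and *Mthfd2* at P1d over E18.5d, held under all 22 or 21 alternatives fitted.

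No clear pairing of hearts by replicate number was seen: deviations of same-numbered hearts correlated at -0.055 to 0.11, and those of other pairs at -0.18 to 0.13. With 3 hearts per stage, these correlations cannot decide whether same-numbered hearts shared a litter or batch. With the number as a replicate block, 6 members were lower at P1d over E18.5d and 7 lower at P7d over E18.5d. At P7d over P1d 2 were higher and 3 lower, and no call of a member changed. Over all genes, the block gave 3686 lower and 2487 higher at P1d over E18.5d, and 4961 and 1706 at P7d over E18.5d. It gave 3817 lower and 2040 higher at P7d over P1d. *Gdf15* and *Trib3* had the lowest means of the members, 0.384 and 1.19 FPKM.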
